A study of Mus musculus with 24 samples.

Results

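The 10 genes described here are Aim2 and 9 Ifi200 family genes of the same locus on mouse chromosome 1: Ifi203, Ifi204, Ifi206, Ifi207, Ifi208, Ifi209, Ifi211, Ifi213 and Ifi214. Their rows were found by matching the Ensembl identifiers of the count table to these symbols, which gave 10 of 54446 gene rows, and all 10 were among the 15325 genes with enough reads to be tested. The genes were chosen on results that were already known, namely their levels in each mouse at 0 h and their contrast between genotypes. Levels by genotype are therefore given as a description with no test, and tests are kept to the change over time after stimulation. The 0 h levels also enter every change from 0 h and every comparison of responses between genotypes. These tests are therefore not independent of the choice of genes.

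CD4+ T cells were taken from the spleens of C57BL/6 wild type (WT) mice and of Aim2-/- mice, and were cultured with anti-CD3/CD28 antibodies, which trigger T cells through their antigen receptor and CD28. Bulk RNA was sequenced at 0 h, which is the unstimulated control, and after 3, 6 and 24 h. Each of the 8 groups of genotype and time held 3 libraries. They were labelled WT 1, WT 3 and WT 4 or Aim2-/- 1, Aim2-/- 2 and Aim2-/- 4, and every label recurs at all 4 times. Libraries with the same label were taken to come from the same mouse, which the labels do not state. The Aim2-/- line was kept on the C57BL/6 background and came from a commercial supplier, and the cells were enriched by immunomagnetic depletion of other cells. The ages of the mice are not given in the labels.

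Ifi200 (PYHIN) proteins carry an amino-terminal pyrin domain, which binds other pyrin domains, or a carboxy-terminal HIN domain, which binds DNA, and most carry both. AIM2 binds double-stranded DNA in the cytosol and recruits the adaptor ASC (Pycard) and caspase-1 into an inflammasome, and p204, the product of Ifi204, is linked to DNA sensing through STING. The family takes its name from its induction by interferon, and its gene content and expression are known to vary between inbred mouse strains.

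The 10 genes lay within 591.8 kb (GRCm38, chr1:173350879-173942672), 3 on the plus strand and 7 on the minus strand, and all are annotated as protein coding. RefSeq promoter entries, each running from 250 bases before to 50 bases after an annotated gene start, were matched for 9 of the 10 genes. The entries of 6 genes are printed below because members that share promoter sequence are compared in the results, with Aim2 as the gene with a different time course. They are given 5′ to 3′ on the strand of the gene (GRCm38.p6), and capitals mark the letters GAAANNGAA, the core of the interferon-stimulated response element (ISRE). Their positions are chr1:173491269-173491568 (minus strand) for Ifi206, chr1:173599223-173599522 (minus) for Ifi213, chr1:173673415-173673714 (plus) for Ifi208, chr1:173535908-173536207 (minus) for Ifi214, chr1:173630609-173630908 (plus) for Ifi209 and chr1:173420354-173420653 (plus) for Aim2.
Ifi206: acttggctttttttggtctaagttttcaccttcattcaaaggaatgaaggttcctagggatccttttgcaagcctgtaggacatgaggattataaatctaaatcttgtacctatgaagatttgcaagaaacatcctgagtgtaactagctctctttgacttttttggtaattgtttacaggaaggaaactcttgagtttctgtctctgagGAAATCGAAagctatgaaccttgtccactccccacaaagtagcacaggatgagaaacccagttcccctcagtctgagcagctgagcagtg
Ifi213: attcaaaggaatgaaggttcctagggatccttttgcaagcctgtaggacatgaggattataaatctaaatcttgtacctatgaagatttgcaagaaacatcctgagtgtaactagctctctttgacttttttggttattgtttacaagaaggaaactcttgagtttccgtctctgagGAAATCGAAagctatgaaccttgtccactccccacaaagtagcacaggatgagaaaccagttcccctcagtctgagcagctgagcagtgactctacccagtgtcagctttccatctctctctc
Ifi208: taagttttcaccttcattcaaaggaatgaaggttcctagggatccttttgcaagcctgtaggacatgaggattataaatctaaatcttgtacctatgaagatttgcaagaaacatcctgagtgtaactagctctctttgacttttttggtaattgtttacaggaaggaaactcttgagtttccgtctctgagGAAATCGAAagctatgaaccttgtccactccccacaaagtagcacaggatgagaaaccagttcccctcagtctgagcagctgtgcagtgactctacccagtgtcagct
Ifi214: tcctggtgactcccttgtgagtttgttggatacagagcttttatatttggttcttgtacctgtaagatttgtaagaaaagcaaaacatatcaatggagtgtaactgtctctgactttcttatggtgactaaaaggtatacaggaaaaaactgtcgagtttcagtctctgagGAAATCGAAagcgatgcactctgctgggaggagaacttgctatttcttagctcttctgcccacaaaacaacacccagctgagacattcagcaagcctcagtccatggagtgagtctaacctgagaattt
Ifi209: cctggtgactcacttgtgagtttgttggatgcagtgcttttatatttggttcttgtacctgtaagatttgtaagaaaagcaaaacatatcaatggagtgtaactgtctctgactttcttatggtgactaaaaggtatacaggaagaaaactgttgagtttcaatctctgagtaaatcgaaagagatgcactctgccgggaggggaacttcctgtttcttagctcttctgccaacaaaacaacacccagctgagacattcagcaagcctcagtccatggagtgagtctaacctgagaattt
Aim2: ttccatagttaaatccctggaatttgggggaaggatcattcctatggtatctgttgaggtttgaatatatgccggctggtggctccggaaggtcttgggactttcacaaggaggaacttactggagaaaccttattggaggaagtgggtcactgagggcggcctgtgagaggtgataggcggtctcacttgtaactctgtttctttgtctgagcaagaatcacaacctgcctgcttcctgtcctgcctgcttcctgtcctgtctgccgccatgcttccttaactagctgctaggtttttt

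Read side by side, these promoters fell into near-copies. Ifi208 and Ifi213 had 98.9% identical bases over 285 aligned columns, and Ifi206 and Ifi208 had 98.9% over 282. Ifi209 and Ifi214 had 95.7% over 300, and Ifi207 and Ifi211 had 87.5% over 297. The letters GAAANNGAA, searched on both strands, were found in 7 of the 9 members with an entry (Ifi203, Ifi206, Ifi207, Ifi208, Ifi211, Ifi213 and Ifi214) and in 8.56% of all 32851 promoter entries of this length. A member counted if any of its entries matched. For Ifi203 the entry starting at 173942443 held the match and the entry starting at 173942623 did not. Matches in near-copies are not separate observations, so the member count and the share per entry are unlike measures. Aim2 and Ifi209 held no match. The Aim2 entry lies inside the gene as annotated in GENCODE (chr1:173350879-173466040, plus strand). Bases before the start at 173350879 were not searched. In the alignment of Ifi214 with Ifi209 the core differed at 1 of 9 bases, G1T, counted from 1 at the first base of the core with the base of Ifi214 first. Between Ifi207 and Ifi211 the core differed by C6T, counted the same way from the base of Ifi207, which is an N of the motif.

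Other motifs were found in fewer members than GAAANNGAA. The letters TTCNNNGAA, the gamma-activated site, were found in 0 of 9 members and 8.3% of all entries. The letters TGANTCA, bound by AP-1, were found in 2 members (Ifi203 and Ifi209) and 7.81% of entries, and GGAAAA, the core bound by NFAT, in 1 member (Ifi214) and 23.4% of entries. These matches describe letters only.

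Library totals ran from 19715161 to 21627018 counts. Levels are given as CPM (counts scaled by library size), scaled between libraries by the trimmed mean of M values (TMM), and 3 counts correspond to 0.145 CPM in a library of mean size. The 6 markers of the labelled cell type summed to 3040 to 4430 CPM in all libraries. The 6 myeloid markers, listed in the processing notes, summed to 31.4 to 52.1 CPM in WT and 99.7 to 325 CPM in Aim2-/- libraries at 0 h, and to 13 to 23.9 and 28 to 152 CPM at 24 h. Beside every level given by genotype these markers thus differ too, and their part in it was not tested. In bulk RNA, fewer cells of a type and less RNA per cell cannot be told apart.

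The targeted gene was read first, as a check of the labels. Aim2, at chr1:173350879-173466040 (plus strand, ENSMUSG00000037860), stood at 75 CPM in WT 3 and 67.5 CPM in WT 4 at 0 h. It stood at 15.7, 20.1 and 19 CPM in Aim2-/- 1, 2 and 4, and at 21.5 CPM in the library labelled WT 1. The library labelled WT 1 was thus 1 of 3 WT libraries that did not match its group in the targeted gene, and the same held at 3, 6 and 24 h. Reads of the gene were still counted in Aim2-/- libraries, and a gene total does not show which exons they came from. Counts of members called in WT and of differences between genotypes are given with and without the WT 1 libraries, as are the list counts that their removal changed.

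Aim2 was lower after stimulation than at 0 h in every mouse. It went from 75 CPM to 50.7, 33 and 34 CPM at 3, 6 and 24 h in WT 3, and from 67.5 to 52.3, 32.5 and 38.7 CPM in WT 4. In the libraries labelled WT 1 it went from 21.5 to 17, 11.5 and 5.57 CPM. The Aim2-/- libraries went from 15.7 to 14.6, 11.4 and 6.55 CPM in mouse 1, from 20.1 to 14.9, 10.7 and 7.15 CPM in mouse 2 and from 19 to 15.1, 8.18 and 5.28 CPM in mouse 4. Aim2 was highest at 0 h in all 6 mice, as were 16.1% of tested genes, and the libraries of WT 3 and WT 4 stayed above the other 4 mice at every time. At 24 h it was slightly above its 6 h value in WT 3 and WT 4, and below it in the other 4 mice.

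Ifi213 (chr1:173566283-173599274, minus strand, ENSMUSG00000073491) was the member with the widest gap between mice. It stood at 51.1, 43.3, 24.6 and 4.32 CPM at 0, 3, 6 and 24 h in WT 3 and at 57.6, 62.5, 30.9 and 12.5 CPM in WT 4. In WT 1 it stood at 1, 1.57, 1.46 and 0.304 CPM. The Aim2-/- libraries lay between 0.242 and 0.935 CPM at 0 h, 0.817 and 1.69 CPM at 3 h, 0.747 and 1.39 CPM at 6 h and 0.257 and 0.554 CPM at 24 h. At low level Ifi213 was higher at 3 h than at 0 h in all 3 Aim2-/- mice and in WT 1, by 0.61 to 1.43 on the log2 scale. These low levels were 5 to 36 counts a library in the Aim2-/- mice and 6 to 34 in WT 1. At high level it changed by -0.24 in WT 3 and 0.12 in WT 4 at 3 h, and by -1.05 and -0.90 at 6 h.

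Ifi206 (chr1:173468485-173491041, minus strand, ENSMUSG00000037849) shares its promoter sequence with Ifi213 and was also higher in WT 3 and WT 4. It went from 27 to 70.8, 59.5 and 9.2 CPM in WT 3 and from 31.4 to 122, 81.5 and 16.3 CPM in WT 4. In WT 1 it went from 4.9 to 8.06, 7.67 and 1.87 CPM, and the Aim2-/- libraries lay at 2.47 to 4.33 CPM at 0 h, 7.67 to 9.81 CPM at 3 h, 5.27 to 11.7 CPM at 6 h and 1.51 to 2.45 CPM at 24 h. All 6 mice had more Ifi206 at 3 and 6 h than at 0 h. At 24 h they had less, by 0.01 on the log2 scale in Aim2-/- 1 and 0.82 to 1.55 in the other 5.

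Ifi208 (chr1:173673675-173698395, plus strand, ENSMUSG00000066677), the other gene of this promoter trio, was also above its 0 h level at 3 and 6 h and below it at 24 h in all 6 mice. It went from 53.3 to 95.1, 72.9 and 10.4 CPM in WT 3, from 56 to 147, 96.5 and 17.8 CPM in WT 4, and from 11 to 16.3, 16.3 and 2.69 CPM in WT 1. The Aim2-/- libraries went from 6.2 to 10.5, 14.4 and 5.04 CPM in mouse 1, from 8.37 to 22.6, 16.2 and 4.43 CPM in mouse 2 and from 9.89 to 20.2, 14.4 and 4.77 CPM in mouse 4. At 24 h the difference from 0 h was a decrease of 1.65 to 2.35 on the log2 scale in the WT mice, WT 1 included. In the Aim2-/- mice it was a decrease of 0.29 to 1.04.

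Ifi209 (chr1:173630917-173647928, plus strand, ENSMUSG00000043263) went from 125 to 151, 111 and 15.9 CPM in WT 3, from 125 to 223, 156 and 26.3 CPM in WT 4, and from 62.5 to 51.9, 41 and 7.09 CPM in WT 1. The Aim2-/- libraries lay at 34.2 to 44.7 CPM at 0 h, 38.8 to 56.8 CPM at 3 h, 33.9 to 41.3 CPM at 6 h and 7.59 to 12 CPM at 24 h. At 3 h it was above its 0 h level in 5 of 6 mice, by 0.02 in Aim2-/- 4 to 0.83 in WT 4 (log2), and changed by -0.27 in WT 1, and the fall at 24 h was seen in all 6 mice. Ifi214 (chr1:173519717-173535957, minus strand, ENSMUSG00000070501), whose promoter is a near-copy of that of Ifi209, was higher at 3 h than at 0 h in all 6 mice, by 0.23 in WT 1 to 1.84 in WT 4.

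A second set of members had the opposite order between mice. Ifi204 (chr1:173747293-173766943, minus strand, ENSMUSG00000073489), which encodes p204, stood at 23.9, 28.6, 25.5 and 4.51 CPM at 0, 3, 6 and 24 h in WT 1. The Aim2-/- libraries lay at 18 to 22.9 CPM at 0 h, 27.6 to 37.4 CPM at 3 h, 28.6 to 32 CPM at 6 h and 5.34 to 11.4 CPM at 24 h. In WT 3 it was at 0.155, 0.425, 0.974 and 0.0514 CPM, or 3, 9, 20 and 1 counts, and in WT 4 at 0.254, 0.514, 1.75 and 0.257 CPM, or 5, 11, 36 and 5 counts. In WT 3 and in WT 4 the highest value of Ifi204 was that at 6 h, and WT 3 and WT 4 lay below the other 4 mice at all 4 times.

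Ifi211 (chr1:173896345-173913046, minus strand, ENSMUSG00000026536) stood at 10.5, 8.75, 9.05 and 0.912 CPM in WT 1. The Aim2-/- libraries went from 5.23 to 8.9, 7.07 and 2.49 CPM in mouse 1, from 6.25 to 10.3, 7.02 and 0.957 CPM in mouse 2 and from 6.5 to 10.7, 7.56 and 1.33 CPM in mouse 4. In WT 3 it stood at 0.207, 0.519, 0.438 and 1.59 CPM (4, 11, 9 and 31 counts) and in WT 4 at 0.456, 0.794, 0.584 and 0.77 CPM (9, 17, 12 and 15 counts). At 24 h the libraries of WT 3 and WT 4 overlapped with those of the Aim2-/- mice. Ifi207 (chr1:173723427-173741747, minus strand, ENSMUSG00000073490) was low everywhere, at 0.101 to 2.32 CPM in WT 1 and the Aim2-/- libraries and at 0 to 0.331 CPM in WT 3 and WT 4, where no library held more than 7 counts.

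Ifi203 and Ifi214 were the members with the smallest spread between mice, 0.91 and 0.95 on the log2 scale for the mean over the 4 times. Ifi203 (chr1:173920407-173942672, minus strand, ENSMUSG00000039997) stood at 71.8 ± 11.0, 248 ± 103, 161 ± 49.6 and 21.5 ± 6.87 CPM (SD, n = 3) at 0, 3, 6 and 24 h in WT, and at 49.5 ± 7.25, 142 ± 28.5, 97 ± 10.7 and 23.8 ± 6.51 CPM (SD, n = 3) in Aim2-/- libraries. Without the WT 1 libraries the WT levels were 61.3 and 70.9, 220 and 362, 157 and 213, and 17.4 and 29.4 CPM in WT 3 and WT 4. At 3 h Ifi203 was at 162 CPM in WT 1, and in the Aim2-/- mice 113, 170 and 142 CPM. Ifi214 stood at 25.1, 29.3, 26.9 and 2.43 CPM in WT 1, at 10.8, 25.7, 24.3 and 4.52 CPM in WT 3 and at 12.9, 46.4, 33.4 and 5.7 CPM in WT 4. Its Aim2-/- libraries began at 10.5 to 14.2 CPM, reached 18.4 to 24.8 CPM by 3 h and 12.3 to 18.6 CPM by 6 h, and ended at 2.26 to 3.78 CPM. Both genes were highest at 3 h in all 6 mice, as were 1.74% of tested genes.

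**Figure D1:**
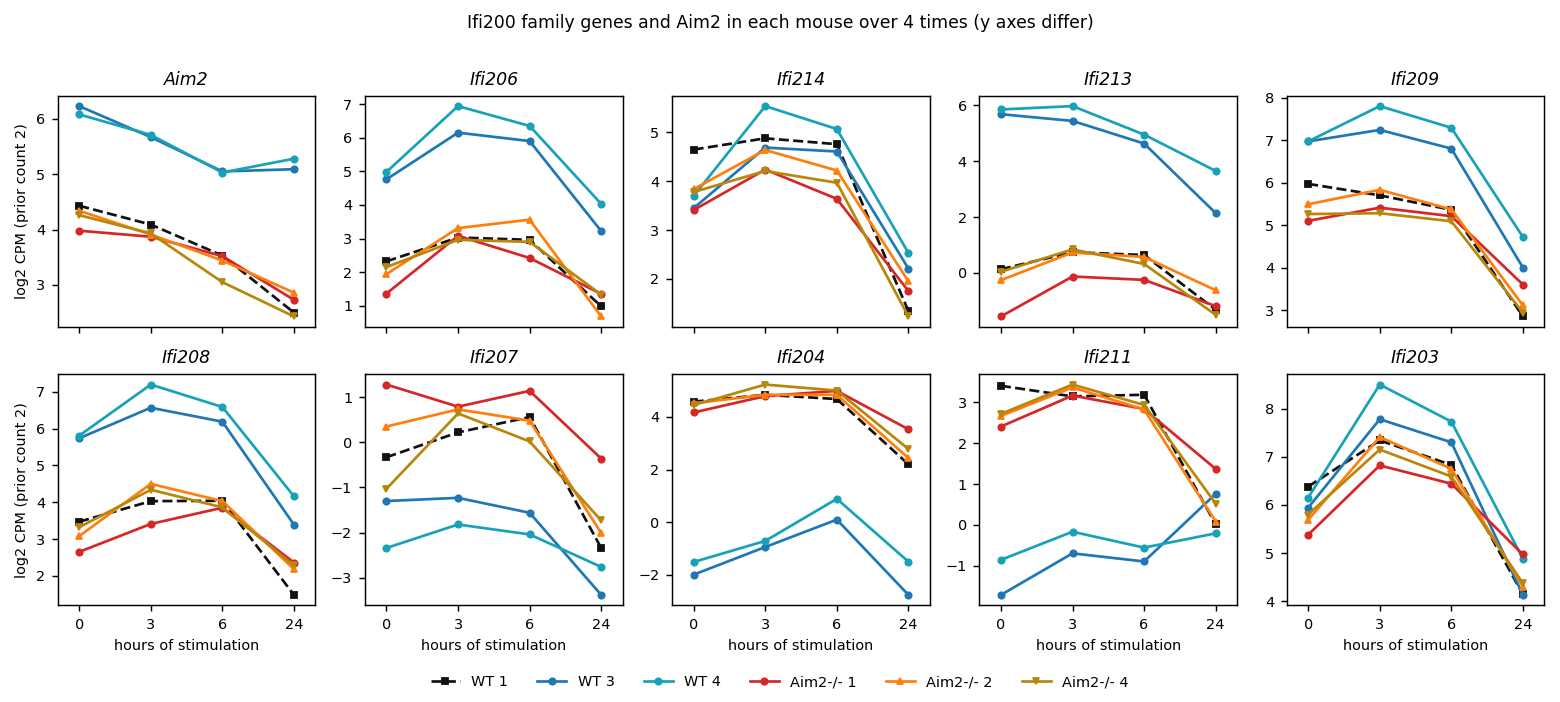
Level of each gene (log2 CPM with a prior count of 2, y axis, whose range differs between panels) at 0, 3, 6 and 24 h (x axis, evenly spaced) in each of the 6 mice, 1 line a mouse, with WT 1 dashed. The WT 1 line runs with the Aim2-/- lines for Aim2, Ifi206, Ifi213, Ifi208 and Ifi204, while WT 3 and WT 4 run apart from them.

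Across the 10 genes and 4 times, the WT 1 library lay nearer to the range of the Aim2-/- libraries than to that of WT 3 and WT 4 in 35 of 40 cases, and nearer to WT 3 and WT 4 in 5. For Aim2, Ifi206, Ifi208, Ifi209 and Ifi213, WT 3 and WT 4 were above all Aim2-/- libraries at all 4 times, and for Ifi204 and Ifi207 they were below them at all 4 times. In these genes that order was held through stimulation, although most levels changed several-fold. Ifi214 at 0 h and Ifi203 and Ifi211 at 24 h overlapped, so there it was not held. The 0 h levels were among those on which the genes were chosen. The same counts over all tested genes were not made, so no share stands beside them.

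Read over time, 42 of 60 pairs of gene and mouse had their highest level at 3 h. Another 10 were highest before stimulation, 7 at 6 h and 1 at 24 h. Over all tested genes, 14.9% of such pairs were highest at 3 h and 38.3% at 24 h. The pair highest at 24 h was Ifi211 in WT 3. The members share libraries, so these pairs are not replicates.

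**Figure D2:**
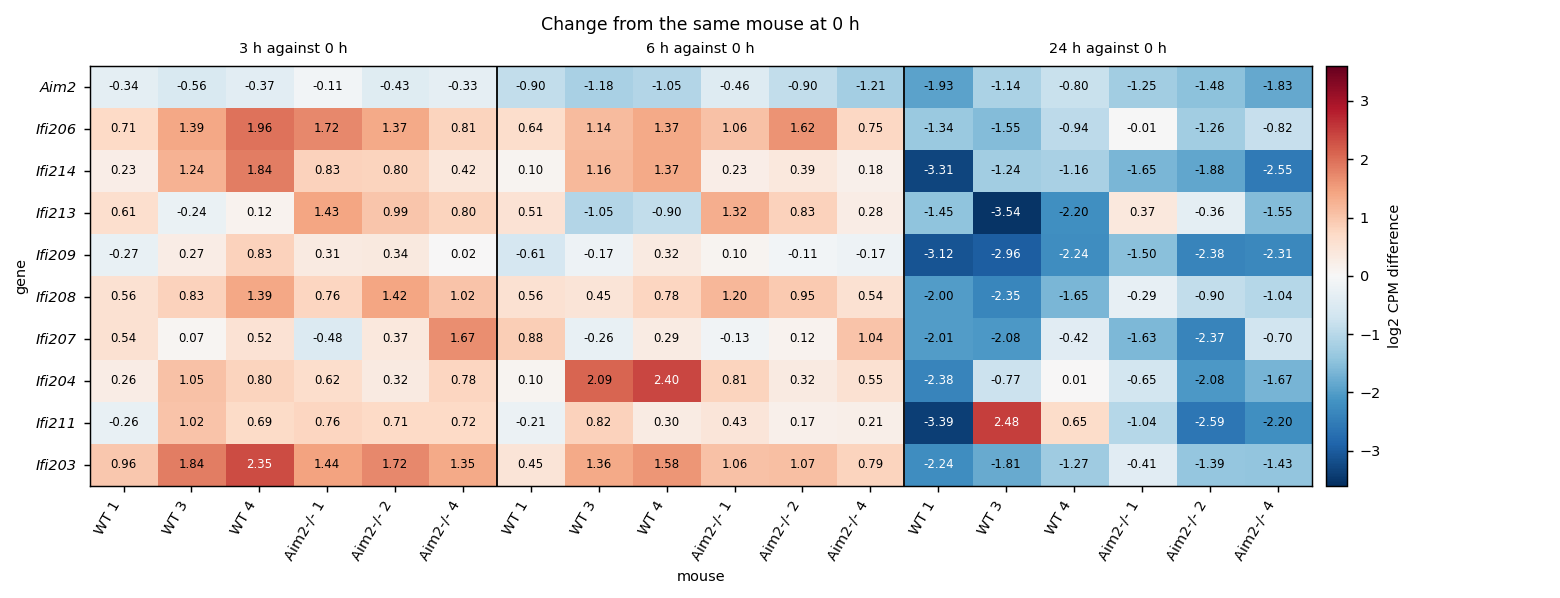
Difference in log2 CPM between each time and 0 h of the same mouse (colour and number), with genes in rows ordered by position and mice in columns. At 24 h the cells above 0 are Ifi211 in WT 3 (2.48) and WT 4 (0.65), Ifi213 in Aim2-/- 1 (0.37) and Ifi204 in WT 4 (0.01).

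At 3 h in WT, edgeR's quasi-likelihood test with Benjamini-Hochberg adjustment called 2 of 10 members, Ifi203 (log2 change 1.79, SE 0.28, adjusted p = 3.45e-05) and Ifi214 (1.06, SE 0.30, adjusted p = 0.00938), both higher. Of all tested genes 32.6% were called, and 16.2% were called higher. The median log2 change was 0.47 over the members and 0.02 over all genes. Since each label recurs at all 4 times and was taken as 1 mouse, the same test was run with the mouse as a block. The block removes stable differences between mice. It called 5 members (42.7% of all genes, 21.2% higher): Ifi206 (1.45, SE 0.20, adjusted p = 6.31e-06) and Ifi208 (0.96, SE 0.17, adjusted p = 6.88e-05) rose beside Ifi203 and Ifi214, and Aim2 fell (-0.43, SE 0.16, adjusted p = 0.0365). Without the WT 1 libraries the block called 6 (33.8% of all genes), with Ifi209 added (0.54, SE 0.16, adjusted p = 0.0128). The test without the block called 5 members when WT 1 was left out, and 1 member when WT 3 or WT 4 was left out. For fits without the block that leave out a mouse, here and below, the share of all genes called was not computed. A change in these counts thus cannot be told from a general change in calls.

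At 3 h in Aim2-/- cells, the test without the block called 1 member, Ifi203 (1.51, SE 0.27, adjusted p = 0.000267, edgeR), which was higher, where 30.7% of all genes were called and 16.1% were higher. With the mouse as a block it called 5 (41.2% of all genes, 20.8% higher), all higher. These were Ifi203, Ifi206 (1.30, SE 0.24), Ifi208 (1.10, SE 0.18), Ifi213 (1.09, SE 0.39, adjusted p = 0.0317, edgeR) and Ifi214 (0.68, SE 0.24). The rise of Ifi213 rests on 5 to 36 counts a library. Ifi204 changed by 0.57 (SE 0.23, adjusted p = 0.0581, edgeR with the block). The count without the block was 4 when the WT 1 libraries were left out.

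At 6 h Ifi203 and Ifi214 were still above and Aim2 was further below its 0 h level. In WT the test without the block called Ifi203 (1.17, SE 0.27) and Ifi214 (0.80, SE 0.30), 2 of 10 members where 51.1% of all genes were called. With the block it called 6 (59.2% of all genes), of which Ifi203, Ifi206, Ifi208 and Ifi214 were higher and Aim2 (-1.06, SE 0.16) and Ifi213 (-0.79, SE 0.22) lower. Without the WT 1 libraries the block called 7 (52.1% of all genes), with Ifi204 added at 2.70 (SE 0.61, adjusted p = 0.00107, edgeR), a rise that rests on the 3 to 36 counts of WT 3 and WT 4. The test without the block called 5 members without WT 1 and 1 without WT 3 or without WT 4. In Aim2-/- cells 1 member was called without the block, Ifi203 (0.97, SE 0.27; 51.2% of all genes), and 5 with it (59.9%): Ifi203, Ifi204 (0.55, SE 0.23), Ifi206 (1.18, SE 0.24) and Ifi208 (0.90, SE 0.19) were higher and Aim2 (-0.86, SE 0.18) lower. That count without the block rose from 1 to 4 when the WT 1 libraries were left out.

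At 24 h nearly all members were below their 0 h level. In WT, 6 of 10 were called without the block, all lower: Ifi203 (-1.74, SE 0.28), Ifi207 (-2.72, SE 1.20), Ifi208 (-1.96, SE 0.71), Ifi209 (-2.66, SE 0.50), Ifi213 (-2.68, SE 1.16) and Ifi214 (-1.95, SE 0.32). Of all genes 71.4% were called and 34.8% were called lower. The members' median log2 change was -1.95, beside -0.01 over all genes. With the block 9 were called, all lower (76.3% of all genes, 37.7% lower), and Ifi211 was not (-0.69, SE 0.71, adjusted p = 0.384, edgeR). Without the WT 1 libraries Ifi211 turned to 1.81 (SE 0.55, adjusted p = 0.00706, edgeR with the block), on 4 to 31 counts a library, and 8 members were called (70.1% of all genes). The count without the block was 3 without WT 3, and 8 without WT 1.

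In Aim2-/- cells at 24 h, 5 members were called without the block, all lower (70.3% of all genes, 33.5% lower): Aim2 (-1.53, SE 0.56), Ifi203 (-1.06, SE 0.28), Ifi207 (-1.88, SE 0.82), Ifi209 (-2.05, SE 0.50) and Ifi214 (-2.04, SE 0.33). With the block it was 9, all lower (75.8% of all genes, 36.8% lower), and Ifi213 was not called (-0.70, SE 0.52). The count without the block was 3 without Aim2-/- 1, 3 without Aim2-/- 2 and 2 without Aim2-/- 4, and 8 without WT 1. The 6 myeloid markers fell along with the members at 24 h, with a median log2 change of -3.02 in WT and -2.26 in Aim2-/- cells, and 4 and 3 of them were called lower. With the block 5 were called lower in each, and the WT median was -3.89 with the block and without the WT 1 libraries. Of all genes 34.8% in WT and 33.5% in Aim2-/- cells were called lower, and 37.7% and 36.8% with the block. The part of these markers in the members' fall was not tested. The 4 myeloid markers with the largest change in WT were Cd14 (-4.89, SE 1.07), Csf1r (-4.23, SE 0.87), Adgre1 (-3.63, SE 1.26) and Itgam (-2.41, SE 0.99).

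The responses of the genotypes were compared directly, as the change from 0 h in Aim2-/- cells minus that in WT cells. Without the block edgeR called 0 members at 3, 6 and 24 h, and 0 members had an unadjusted p under 0.05. DESeq2 and limma-voom called 0 as well. Of all genes 0% were called at 3 h, 0.0261% at 6 h and 0% at 24 h, with 653, 2019 and 1825 genes at an unadjusted p under 0.05. With the mouse as a block 0 members were called at 3 and 6 h, where 1 member each had an unadjusted p under 0.05 (0.0587% and 4.68% of all genes called). At 24 h the block called 1, Ifi208 (1.26, SE 0.28, adjusted p = 0.021, edgeR; 2.77% of all genes called), which fell less in Aim2-/- than in WT cells. The difference for Ifi208 was 1.24 (SE 0.30, adjusted p = 0.0279, edgeR with the block) without the WT 1 libraries. Ifi208 changed by -0.29, -0.9 and -1.04 in Aim2-/- 1, 2 and 4 at 24 h. The myeloid markers summed to 152, 28 and 38.8 CPM in these libraries, and their part was not tested. The test without the block called 1 member at 24 h when the WT 1 libraries were left out, and 0 when any other mouse was.

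Other differences depended on the WT 1 libraries. Without them the block called 0 members at 3 h (0.198% of all genes), where 3 had an unadjusted p under 0.05. It called 2 at 6 h (3.49% of all genes), Ifi213 (1.77, SE 0.44, adjusted p = 0.0358, edgeR) and Ifi214 (-1.01, SE 0.22, adjusted p = 0.0219, edgeR). At 24 h it called 3 (4.22% of all genes), Ifi208, Ifi211 (-3.72, SE 0.61, adjusted p = 0.00447, edgeR) and Ifi213 (2.08, SE 0.58, adjusted p = 0.0499, edgeR). With the WT 1 libraries in the fit, the differences for Ifi213 were 1.58 (SE 0.47, adjusted p = 0.0537, edgeR) at 6 h and 1.98 (SE 0.61, adjusted p = 0.0765, edgeR) at 24 h. The levels of Ifi213 and Ifi211 differed so widely between mice at 0 h that these differences compare changes from very unequal starting levels. Ifi208 also began at unequal levels, at 53.3 and 56 CPM in WT 3 and WT 4 at 0 h. WT 1 stood at 11 CPM and the Aim2-/- mice at 6.2 to 9.89 CPM.

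Compared per length, as CPM per kb of exon, Ifi209 led the family in WT 3 and WT 4 at 0 h, at 35.2 in both, and it led in the other 4 mice too, at 17.6 in WT 1 and 9.65 to 12.6 in Aim2-/- mice. At 3 h Ifi209 still led in WT 4, at 62.8 beside 54.1 CPM per kb for Ifi203, while Ifi203 led in WT 1, at 24.1 beside 14.6. The level summed over the 10 genes went from 93.7 to 141, 105 and 23.9 CPM per kb at 0, 3, 6 and 24 h in WT 3 and from 96.5 to 215, 140 and 34.6 in WT 4. It went from 55.9 to 66.4, 53.7 and 9.49 in WT 1, and lay at 32.3 to 41 at 0 h, 53.3 to 70.6 at 3 h, 46.1 to 52.5 at 6 h and 11.3 to 17 at 24 h in Aim2-/- libraries. The makeup differed more than the sum. Ifi204, Ifi207 and Ifi211 together made up 22.9% of it in WT 1 and 25 to 26.8% in Aim2-/- mice at 0 h, and 0.267% in WT 3 and 0.37% in WT 4. At 24 h these shares were 19.1% in WT 1, 18.3 to 28.3% in Aim2-/- mice, 3.8% in WT 3 and 1.5% in WT 4.

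**Figure D3:**
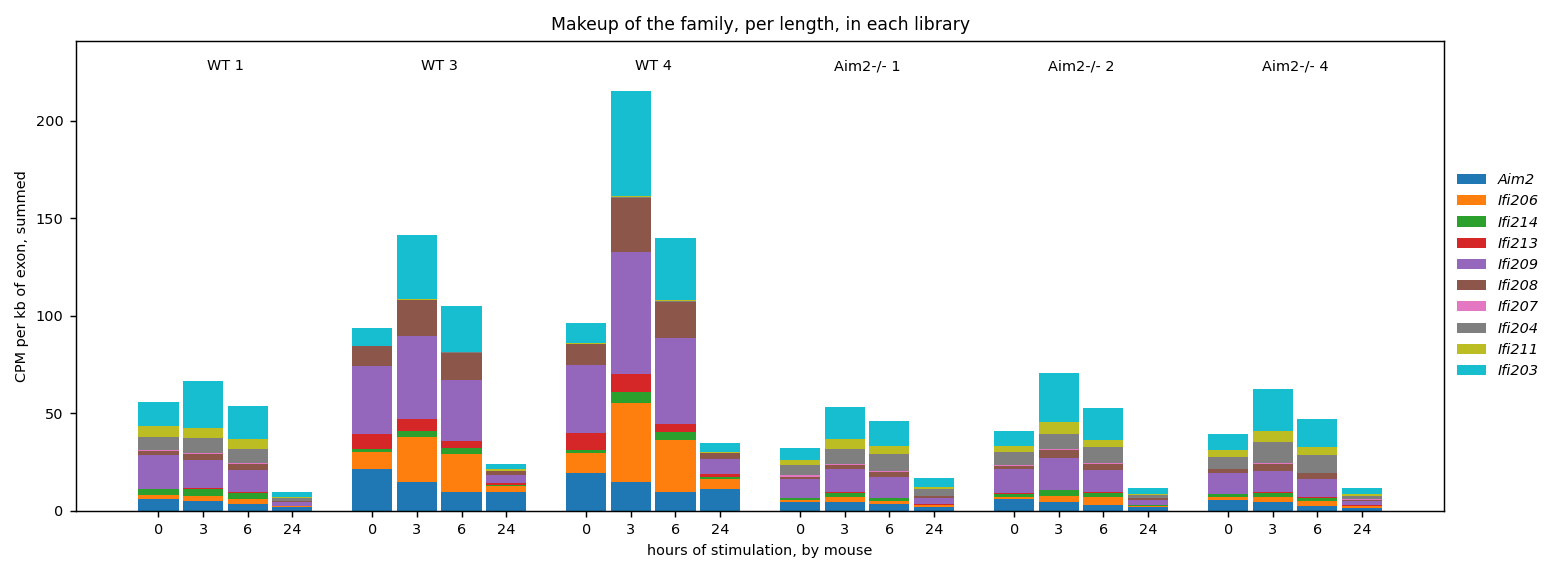
CPM per kb of exon of the 10 genes, stacked from 0 (y axis), in each library, by hours of stimulation within each mouse (x axis). The bars of WT 3 and WT 4 are the tallest, up to 215 in WT 4 at 3 h, and hold almost none of the Ifi204 and Ifi211 segments that are seen in WT 1 and the Aim2-/- mice.

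Counts of these genes are not fully separate. Of the 51-base stretches of the annotated transcripts, 72.4% of those of Ifi211 also occurred in another gene, 44.5% in Ifi205 and 29.8% in Ifi204. The share was 33.2% for Ifi209 (32.8% in Ifi214), 25.2% for Ifi206, 20.4% for Ifi208 (17.6% in Ifi213), 19.6% for Ifi204, 15.2% for Ifi213, 14.3% for Ifi214, 12% for Ifi203, 7.07% for Ifi207 and 0.628% for Aim2. Levels of Ifi211 in particular are uncertain. The kit marked the strand of the RNA, but whether counting used it is not given in the sources used here.

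Of 9 further symbols of the locus, 4 were matched in the table and tested: Mndal, Ifi202b, Ifi205 and Ifi203-ps. Mndal, a PYHIN gene, was read in every mouse at 82.9 to 161 CPM at 0 h and fell at 24 h by 2.51 in WT (SE 0.30) and 1.94 in Aim2-/- cells (SE 0.30) on the log2 scale, and was the 1 of the 4 called at 24 h without the block. Ifi202b, whose product has HIN domains but no pyrin domain, stood at 1.15 CPM in WT 1 and 1.38 to 4.07 CPM in Aim2-/- mice at 0 h, and at 4.66 and 3.33 to 5.87 CPM at 6 h. It did not exceed 0.0974 CPM in WT 3 and was listed at 0 in all 4 libraries of WT 4. The pseudogene Ifi203-ps stood at 5.8, 12.7, 8.51 and 1.72 CPM in WT 1 and at 0 to 0.654 CPM in WT 3 and WT 4. Of these 4, the block called 2 higher in WT at 3 h, Ifi202b (1.47, SE 0.54, adjusted p = 0.0347, edgeR) and Ifi203-ps (1.31, SE 0.37, adjusted p = 0.00687, edgeR), and without the WT 1 libraries Ifi202b changed by -2.39 (SE 2.11) and Ifi203-ps by 3.46 (SE 0.99). It called 3 higher in WT at 6 h and 3 lower at 24 h, which became 1 at 3 h, 2 at 6 h and 1 at 24 h without the WT 1 libraries. It called 2 higher, 2 higher and 4 lower in Aim2-/- cells at 3, 6 and 24 h. Of all genes the block called 42.7%, 59.2% and 76.3% in WT at these times. Without the WT 1 libraries it called 33.8%, 52.1% and 70.1% there. In Aim2-/- cells it called 41.2%, 59.9% and 75.8%. Without the block 71.4% of all genes were called in WT and 70.3% in Aim2-/- cells at 24 h.

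Differences between mice were also seen in neighbouring genes. Among the 43 other tested genes within 2 Mb of Aim2, which include Ifi202b, Ifi205 and Ifi203-ps of the locus, 21 (48.8%) had means over the 4 times that differed by more than 1 log2 CPM between the highest and the lowest mouse, as did 8 of the 10 members. Within 1 Mb it was 11 of 15 genes (73.3%), from 1 to 2 Mb 35.7%, from 2 to 5 Mb 32.6% and from 5 to 10 Mb 18.3%, beside 20.6% of all other tested genes. Among them Fcer1a, a chain of the mast cell IgE receptor, Slamf8 and Slamf9 were highest in Aim2-/- 1, the mouse whose libraries also held the most myeloid marker reads (325 CPM at 0 h). In these 3 genes WT 1 lay with WT 3 and WT 4, below the Aim2-/- mice. Slamf9 did not follow the order of the myeloid markers. It stood at 1.56, 1.47 and 0.9 against the mean of the mice in Aim2-/- 1, 2 and 4. The myeloid markers summed to 325, 99.7 and 166 CPM there at 0 h. The part of other cell types in these spreads was not tested. Among those with WT 1 on the same side as the Aim2-/- mice and apart from WT 3 and WT 4 were Gm37065, a gene model upstream of Aim2 at chr1:171909957-171919356 (-0.40 in WT 1, 2.27 in WT 3 and 2.36 in WT 4 against the mean of the mice), Ifi203-ps (1.82, -3.41 and -2.38), Gm7897 (1.11, -2.10 and -2.10) and Ifi202b (1.05, -2.75 and -3.16).

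**Figure D4:**
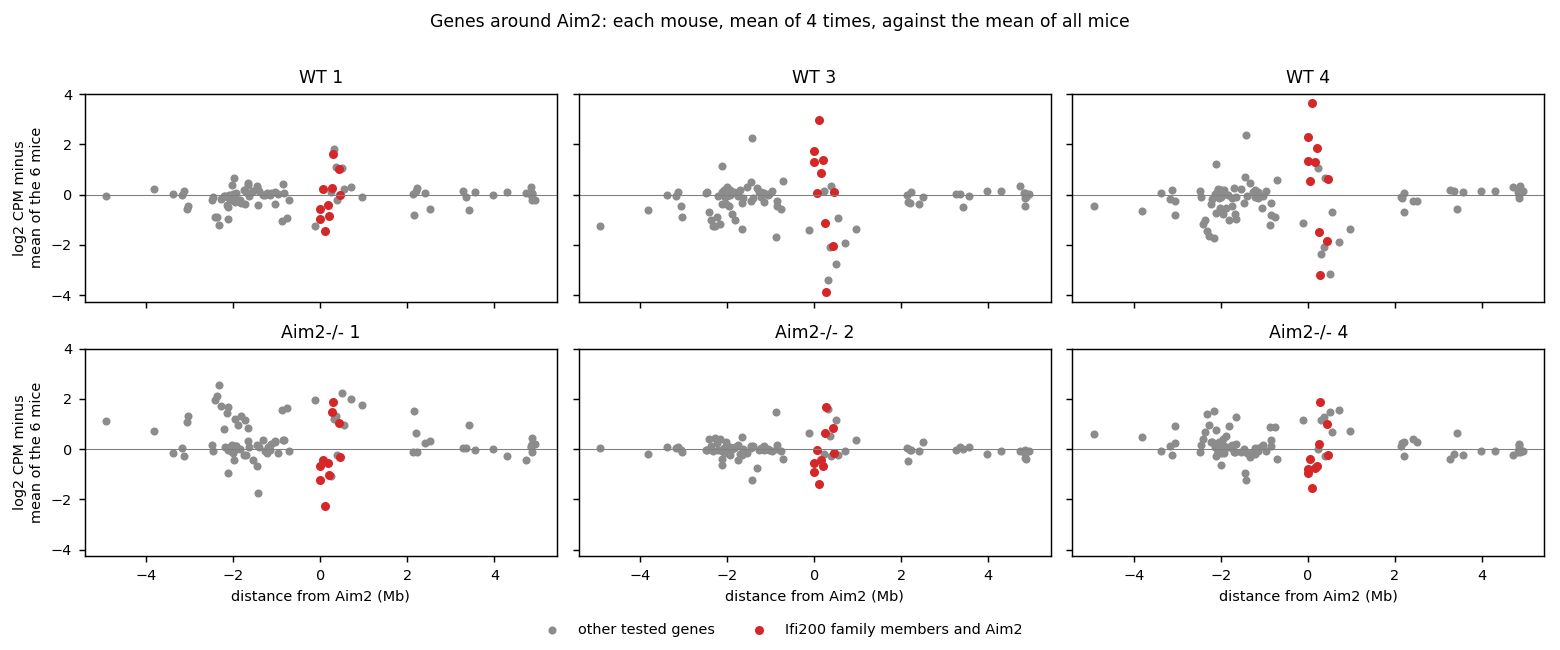
Mean log2 CPM of each mouse over the 4 times minus the mean of the 6 mice (y axis), for each tested gene within 5 Mb of Aim2, by its distance from Aim2 (x axis, Mb), 1 panel a mouse, with the 10 genes in red. The red points of WT 3 and WT 4 lie far above and far below 0, with spreads between mice of up to 5.89 for Ifi213 and 5.77 for Ifi204.

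The 5 genes most alike over the 24 libraries were taken for Aim2, Ifi213 and Ifi204. For the log2 CPM of Aim2 they were Ifi213 (Pearson r = 0.894), Rab4a (0.834), Ifi208 (0.799), Ifi206 (0.799) and Stk26 (0.797), among 11302 named genes with a mean of at least 1 CPM. For Ifi213 they were Ifi206 (0.935), Ifi208 (0.919), Aim2 (0.894), Trav14d-3-dv8 (0.848) and Akap17b (0.817), and for Ifi204 they were Ifi203-ps (0.968), Ifi202b (0.948), Tmem181b-ps (0.916), Dlg2 (0.889) and Ighv9-3 (0.888). For the deviations of Aim2 from the mean of each time they were Ifi213 (0.948), Ifi206 (0.934), Ifi208 (0.916), Ifi209 (0.914) and Flvcr1 (0.888), which lies 17.54 Mb from Aim2 on the same chromosome. Ifi213 was most like Ifi208 (0.978) and Ifi206 (0.972) by that measure, followed by Ifi209 (0.950), Aim2 (0.948) and Enc1 (0.943), a gene of chromosome 13. Ifi204 was most like Tmem181b-ps of chromosome 17 (0.979) and Ifi203-ps (0.975), followed by the immunoglobulin genes Igkv5-43 (0.951) and Igha (0.947) and by Ifi202b (0.943). These correlations are descriptions over libraries that come from only 6 mice.

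Other interferon-stimulated genes were read in the same libraries, and whether interferon changed them was not tested. Of 14 such genes, all tested, 11 were called higher in WT and 10 in Aim2-/- cells at 3 h (edgeR without the block), with medians of 1.67 and 1.09 on the log2 scale, and 10 in each genotype at 6 h. With the block and without the WT 1 libraries 12 were higher in WT at 3 h (median 1.74), 11 at 6 h, and 5 higher and 6 lower at 24 h (median 0.05, beside -0.22 without the block). At 24 h 4 were higher and 6 lower in WT, and 3 higher and 5 lower in Aim2-/- cells. Of all genes 16.2% in WT and 16.1% in Aim2-/- cells were called higher at 3 h. At 6 h 51.1% and 51.2% were called in either direction, and at 24 h 71.4% and 70.3%. The counts at 24 h were thus near or under these shares. With the block and without the WT 1 libraries 33.8%, 52.1% and 70.1% were called in WT at 3, 6 and 24 h. Unlike most members, Bst2, which tethers budding virus, was still higher at 24 h in WT (1.98, SE 0.20), and so was Ifit3, which binds viral RNA complexes (1.85, SE 0.43). Rsad2, or viperin, fell by 3.30 (SE 0.62) and Mx1 by 1.93 (SE 0.44), while neither passed the test at 3 h. Their summed level at 3 h was 2470 CPM in WT 4, 1690 CPM in WT 3, 1570 CPM in WT 1 and 1400 to 1610 CPM in Aim2-/- mice, so WT 4 was highest here as it was for Ifi203, Ifi206, Ifi208, Ifi209 and Ifi214 at 3 h. A shared cause was not tested.

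Of 14 genes listed as partners of AIM2 or as other parts of DNA sensing, 13 were tested. At 3 h 6 were called higher in WT (32.6% of all genes called). In Aim2-/- cells 5 were higher and 1 lower (30.7% of all genes called). At 6 h 5 were higher and 2 lower in each genotype, and at 24 h 4 were higher and 5 lower in each. The 7 of 13 at 6 h and 9 of 13 at 24 h stand beside 51.1% and 71.4% of all genes called in WT and 51.2% and 70.3% in Aim2-/- cells. Casp1, the protease of the inflammasome, changed by 0.03 at 3 h in WT (SE 0.30) and fell at 24 h by 1.42 in WT (SE 0.31) and 1.01 in Aim2-/- cells (SE 0.30). Casp4, the murine caspase-11, fell by 1.32 (SE 0.26) and 1.40 (SE 0.26). Il18, a cytokine that caspase-1 cleaves, fell by 2.04 (SE 0.65) and 2.12 (SE 0.57). Il1b, the other such cytokine, changed by -1.26 (SE 0.73, adjusted p = 0.127, edgeR) in WT and -1.33 (SE 0.65, adjusted p = 0.0722, edgeR) in Aim2-/- cells. Of 4 genes of T cell activation, all 4 were called higher at 3 h in both genotypes, and 2 higher and 2 lower at 24 h. Of all genes 16.2% in WT and 16.1% in Aim2-/- cells were called higher at 3 h. At 24 h 71.4% and 70.3% were called in either direction. In WT at 24 h Myc was higher by 3.11 (SE 0.21) and Il2ra, a chain of the IL-2 receptor, by 2.94 (SE 0.16), while Nr4a1, an early response gene, fell by 2.31 (SE 0.18) and Cd69, an early surface marker, by 0.56 (SE 0.18). The direction counts at 24 h were also 2 and 2 with the block and without the WT 1 libraries.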

How the data were processed

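Raw read counts per Ensembl gene for the 24 libraries were taken as deposited. The authors aligned the reads to GRCm38 with STAR and counted them per gene, and the submitters' processing notes also name DESeq2 and edgeR; versions are not given in the sources used here. Of 54446 identifiers 54409 matched the GENCODE annotation, from which symbols, positions and exon lengths came. The 10 genes, the lists and the tests were chosen with earlier results of these data known.

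Counts were tested in edgeR 4.0.16 (R 4.3.3) with TMM scaling, filterByExpr (minimum count 10), 1 mean per group of genotype and time over all 24 libraries, and quasi-likelihood tests. p-values were adjusted over all 15325 tested genes (Benjamini-Hochberg), and a gene was called at an adjusted p under 0.05. A count of members called is read against the share of all genes called. Log2 CPM values carry a prior count of 2. The common dispersion was 0.0346, a coefficient of variation of 18.6% between libraries of a group. Libraries of a genotype with the same number were taken to come from the same animal, which the labels do not state. Their deviations from group means correlated at 0.139 to 0.567 in 36 pairs, against -0.432 to 0.0742 in 72 pairs of different mice. Taking deviations from group means by itself lowers the correlations between different mice. The mouse was therefore also fitted as a replicate block. Alternatives were other scalings, no filter, DESeq2 1.42.0, limma-voom (limma 3.58.1), and leaving out each mouse. The script was tested on simulated data.

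Named genes were the members. Of each list, at most 4 with the largest change at 24 h in WT were named. Neighbours were tested genes within 2 Mb of Aim2 whose mean over the times differed by more than 1 log2 CPM between mice, of which the report names 7 chosen after their values were seen. For Aim2, Ifi213 and Ifi204 the 5 most alike named genes were taken over 24 libraries. CD4 T cell markers were Cd3e, Cd3g, Cd4, Cd5, Trac and Lck, and myeloid markers Lyz2, Csf1r, Itgam, Adgre1, Cd68 and Cd14. At 0 h in WT, summed B cell markers were at 8.37 to 10.2 CPM, CD8 T cell markers at 9.77 to 11.4, NK cell markers at 33.7 to 46.6, dendritic cell markers at 1.3 to 2.43 and erythroid markers at 6.14 to 53.6. In Aim2-/- libraries they were at 16.2 to 42.3, 8.12 to 10.9, 38.3 to 67.5, 2.17 to 7.85 and 15.9 to 255 CPM. Promoters are from RefSeq (GRCm38.p6) and were aligned locally with Biopython 1.88.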

Additional observations from a re-analysis of the deposited data

Results flagged for a closer look

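The reported test of the difference in response between genotypes (edgeR without the block, adjusted over all genes) called 0 of the 10 genes at 3, 6 and 24 h, with 0 at an unadjusted p under 0.05 and 0 called by DESeq2 or limma-voom. The values here come from fits with the mouse as a block, which called 2.77% of all genes at 24 h, and without the WT 1 libraries 3.49% at 6 h and 4.22% at 24 h. Ifi208 fell less from 0 to 24 h in Aim2-/- than in WT cells, by 1.26 on the log2 scale with the mouse as a block and by 1.24 with the block and without the WT 1 libraries. Its fall was smallest in Aim2-/- 1, whose 24 h library also held the most myeloid marker reads. The part of other cell types was not tested. The other differences passed with the block and without the WT 1 libraries, and not with the block over all libraries. Ifi211 differed by -3.72 at 24 h, where it went from 4 to 31 counts in WT 3 and from 9 to 15 counts in WT 4 and was lower than at 0 h in all 3 Aim2-/- mice. Ifi213 differed by 1.77 at 6 h and by 2.08 at 24 h, and Ifi214 by -1.01 at 6 h. The Aim2-/- libraries held 5 to 36 counts of Ifi213.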

How the results depend on the processing

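DESeq2 and RLE size factors gave the same counts of members called as the reported test in all 9 comparisons. With the mouse as a replicate block the counts in WT at 3, 6 and 24 h were 5, 6 and 9, in Aim2-/- cells 5, 5 and 9, and for the difference of response 0, 0 and 1. With the block and without the WT 1 libraries they were 6, 7 and 8, then 7, 5 and 9, then 0, 2 and 3. Without a filter on low counts they were 4, 4 and 10, then 4, 2 and 6. Library totals alone gave 2 in Aim2-/- cells at 3 h, and limma-voom gave 3 in WT and 3 in Aim2-/- cells at 24 h. Leaving out 1 mouse gave 1 to 5, 1 to 5 and 3 to 8 in WT, 1 to 4, 1 to 4 and 2 to 8 in Aim2-/- cells, and 0 to 1 for the difference at 24 h. The cause of these moves was not tested. The share of all genes called was computed for the block over all libraries. With the block and without the WT 1 libraries it was computed for WT and for the difference, and for the other alternatives it was not. Of 1170 values of single genes, 68 changed sign, 66 of them called in neither setting, and the other 2 were Ifi211 in WT at 24 h without the WT 1 libraries (1.81 with and without the block). With the block the changed values were -0.16 (Ifi204), 0.08 (Ifi206) and 0.10 (Ifi209) for the difference at 6 h, and 0.05 (Ifi211) and 0.01 (Ifi213) in WT at 3 h. With the block and without WT 1 they were, for the difference at 3, 6 and 24 h, -0.62, -2.15 and -1.03 (Ifi204), at 3 and 6 h 0.11 and 0.29 (Ifi207) and -0.24 and -0.35 (Ifi211), at 3 h -0.01 (Ifi208), and in WT -0.05 (Ifi207) and 0.07 (Ifi209) at 6 h and 0.97, 0.61 and 1.81 (Ifi211) at 3, 6 and 24 h. Library totals gave 0.00 for the difference of Ifi206 at 6 h, 0.07 and 0.06 for Ifi209 at 6 h in WT and Aim2-/- cells, and 0.08 for Ifi213 in WT at 3 h. limma-voom gave, for the difference at 3, 6 and 24 h, -0.26, -1.22 and -0.25 (Ifi204), 0.10 and 0.01 at 3 and 6 h (Ifi207), 0.13 (Ifi206), 0.09 (Ifi209) and -0.14 (Ifi211) at 6 h, and in WT 0.56 and 0.41 at 3 and 6 h (Ifi211) and 0.18 at 3 h (Ifi213). Leaving out 1 mouse, the results that changed sign ran over -0.63 to 0.13 (Ifi203, difference at 3 h), -0.52 to 0.05 (Ifi203, difference at 6 h), -0.60 to 0.43 (Ifi204, difference at 3 h), -2.15 to 0.46 (Ifi204, difference at 6 h), -1.01 to 1.21 (Ifi204, difference at 24 h), -0.56 to 0.01 (Ifi206, difference at 3 h), -0.34 to 0.21 (Ifi206, difference at 6 h), -0.07 to 0.89 (Ifi207, WT at 6 h), -0.13 to 0.93 (Ifi207, Aim2-/- at 3 h), -0.04 to 0.48 (Ifi207, Aim2-/- at 6 h), -0.64 to 0.43 (Ifi207, difference at 3 h), -0.78 to 0.22 (Ifi207, difference at 6 h), -0.17 to 0.35 (Ifi208, difference at 3 h), -0.32 to 0.10 (Ifi209, WT at 6 h), -0.35 to 0.14 (Ifi209, difference at 3 h), -0.17 to 0.22 (Ifi209, difference at 6 h), -0.24 to 0.97 (Ifi211, WT at 3 h), -0.21 to 0.61 (Ifi211, WT at 6 h), -2.75 to 1.81 (Ifi211, WT at 24 h), -0.24 to 0.96 (Ifi211, difference at 3 h), -0.35 to 0.46 (Ifi211, difference at 6 h), -3.72 to 0.81 (Ifi211, difference at 24 h), -0.24 to 0.13 (Ifi213, WT at 3 h), -0.92 to 0.09 (Ifi214, difference at 3 h) and -0.83 to 0.34 (Ifi214, difference at 24 h). Depth limits Ifi207 everywhere and Ifi204, Ifi211 in WT 3 and WT 4, where a library held 0 to 36 counts of a gene. It also limits Ifi213 in WT 1 and the Aim2-/- mice, at 5 to 36 counts a library.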
